A study of Mus musculus with 13 samples.

Results

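Laminins, nidogen, type IV collagen and perlecan are the structural proteins of basement membranes, the thin sheets of matrix that underlie epithelia and surround muscle, fat and peripheral nerve. The set described here holds 10 of the 34857 genes measured, chosen by name: the laminin alpha chain genes Lama1, Lama4 and Lama5, the beta chain genes Lamb1 and Lamb2, the gamma chain gene Lamc1, the nidogen gene Nid1, the collagen IV genes Col4a1 and Col4a2, and the perlecan gene Hspg2. All 10 were found in the deposited tables. Their expression was compared between cells that had gone through a simulated failure of cryostorage and cells that had not.

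The cells were Neuro2a, a mouse neuroblastoma line of sympathetic character that grows as adherent, neuron-like cells. Every vial was frozen in medium with 10% DMSO, a cryoprotectant. Experimental vials stood in a storage vessel whose liquid nitrogen evaporated over 10 h, then spent 24 h at 4 °C and a further 72 h refrozen at -80 °C before they were thawed at 37 °C. Control vials of the same line remained in ordinary cryostorage until thawing, and both were grown in DMEM with 10% fetal bovine serum. Poly(A) RNA was sequenced at passage 1 (3 control and 4 experimental libraries), early in recovery, and at passage 6 (3 and 3 libraries), when the survivors looked normal. The labels do not say whether replicates came from separate vials or cultures, so p-values measure only the spread between these libraries, which may be technical.

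A laminin is a heterotrimer of 1 alpha, 1 beta and 1 gamma chain. Chains assemble in the endoplasmic reticulum, the secreted trimers polymerise at the cell surface where integrins and dystroglycan hold them, and nidogen and perlecan link this layer to a network of type IV collagen. Alpha chains carry the main receptor-binding domains, so the alpha chain in use determines which receptors a laminin binds. In the peripheral nervous system Schwann cells, perineurial cells and muscle fibres deposit most of this matrix, and sympathetic neurons extend axons on it.

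Genes are placed on GRCm38, the assembly also called mm10. Lama5 (chromosome 2, 180176373 to 180225859, minus strand) and Lamb2 (chromosome 9, 108479736 to 108490530, plus strand) had the highest fold changes of the set at passage 1, so the sequences ahead of their first annotated exons are shown, 5′ to 3′ on the gene's strand. They come from RefSeq's promoter windows for GRCm38.p6, which held 7 of the 10 genes, and capitals mark GC boxes, the letters GGGCGG on either strand.
Lama5, chr2:180225860-180226109, minus strand: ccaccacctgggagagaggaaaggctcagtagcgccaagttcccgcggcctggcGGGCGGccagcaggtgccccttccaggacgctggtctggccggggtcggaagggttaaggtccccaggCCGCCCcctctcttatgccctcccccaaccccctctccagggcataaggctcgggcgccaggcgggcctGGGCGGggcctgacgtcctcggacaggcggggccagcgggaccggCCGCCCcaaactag
Lamb2, chr9:108479612-108479735, plus strand: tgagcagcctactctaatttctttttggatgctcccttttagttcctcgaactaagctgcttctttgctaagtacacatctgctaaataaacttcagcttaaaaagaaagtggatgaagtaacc
The Lama5 stretch is 250 bases long and holds 4 GC boxes. The 124 bases shown for Lamb2 hold none, and neither does its whole window of 300 bases. Col4a1 (chromosome 8, 11198423 to 11312826, minus strand) and Col4a2 (chromosome 8, 11312805 to 11449287, plus strand) start head to head, and their first exons overlap by 22 bases. These bases, shown because both genes begin in them, hold 1 GC box.
Col4a1 and Col4a2 overlap, chr8:11312805-11312826, plus strand: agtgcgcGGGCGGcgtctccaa
Over windows of 300 bases, GC boxes occurred in 6 of the 7 genes with an entry and in 35.7% of all 32851 promoters. Hspg2 had 5, Lama5 4, Col4a2 3, Lamb1 2, and Col4a1 and Nid1 1 each. The letters CCAAT occurred in 4 of the 7 (Col4a1, Col4a2, Lamb1 and Nid1) against 37.4% of all promoters, searched on both strands. TGACTCA, the AP-1 site, and ACGTG, the core of the hypoxia response element, occurred in none of the 7, against 5.2% and 19.6% of all promoters. A match is a run of letters and not a measured binding site.

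The deposited values are FPKM, fragment counts divided by transcript length and by library size, so levels are per length and can be set beside each other between genes. The read depth behind them is unknown. All 13 markers of Neuro2a identity reached 1 FPKM in every library. RNA of other tissues was also present and was uneven between libraries. Colon epithelium markers summed to 225 to 510 FPKM in passage 1 controls and 8.22 to 213 FPKM in experimental libraries, and at passage 6 to 123 to 282 and 7.90 to 117 FPKM. Col2a1, the main cartilage collagen gene, was at 0.0702 FPKM in passage 1 control 1 and 0.320 FPKM in passage 1 experimental library 4, against 14.3 to 24.0 FPKM among the 5 remaining passage 1 libraries. At passage 6 it was at 11.8, 15.8 and 24.9 FPKM in controls but 0.179, 0.304 and 0.325 FPKM in experimental libraries, so cartilage transcripts separated the passage 6 groups completely. Of 10 cartilage markers, 2 reached 1 FPKM in each passage 6 experimental library and 6 to 9 in controls. The cartilage sum hides this, because Matn3 reached 5.44 FPKM or more in every library and made up 14.3, 11.9 and 13.9 of the 17.0, 16.7 and 18.4 FPKM summed in the passage 6 experimental libraries. Passage 6 experimental libraries 2 and 3 held liver markers (132 and 110 FPKM, at most 1.05 elsewhere), brain glia markers (41.2 and 31.5 FPKM, at most 8.57 elsewhere) and fibroblast and mural cell markers (145 and 132 FPKM, at most 16.8 elsewhere, led by Col1a1). Vascular endothelium, a major source of Lama4 and Col4a1 in tissue, gave 2.83 to 6.53 FPKM over 8 markers in all 13 libraries. Pecam1 and Tek led this sum at up to 2.52 and 2.29 FPKM, and Emcn and Kdr stayed at or below 0.0393 and 0.0536 FPKM. Cldn5 reached 1.31 FPKM in experimental library 2 of passage 6 and 0.969 FPKM in library 3 of that group, and 0.233 FPKM or less elsewhere. The part of these transcripts in the results was not tested, but results are also given without the libraries that stood apart. The cartilage difference at passage 6 cannot be told apart from the comparison itself, since every experimental library of that passage was low in Col2a1 and every control was not. Nor can the colon difference at either passage, since each experimental library had a lower colon sum than every control of its passage. Without passage 1 control 1 and experimental library 4 this order remained, with 225 and 242 FPKM in controls against 213, 187 and 8.22 FPKM.

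**Figure D1:**
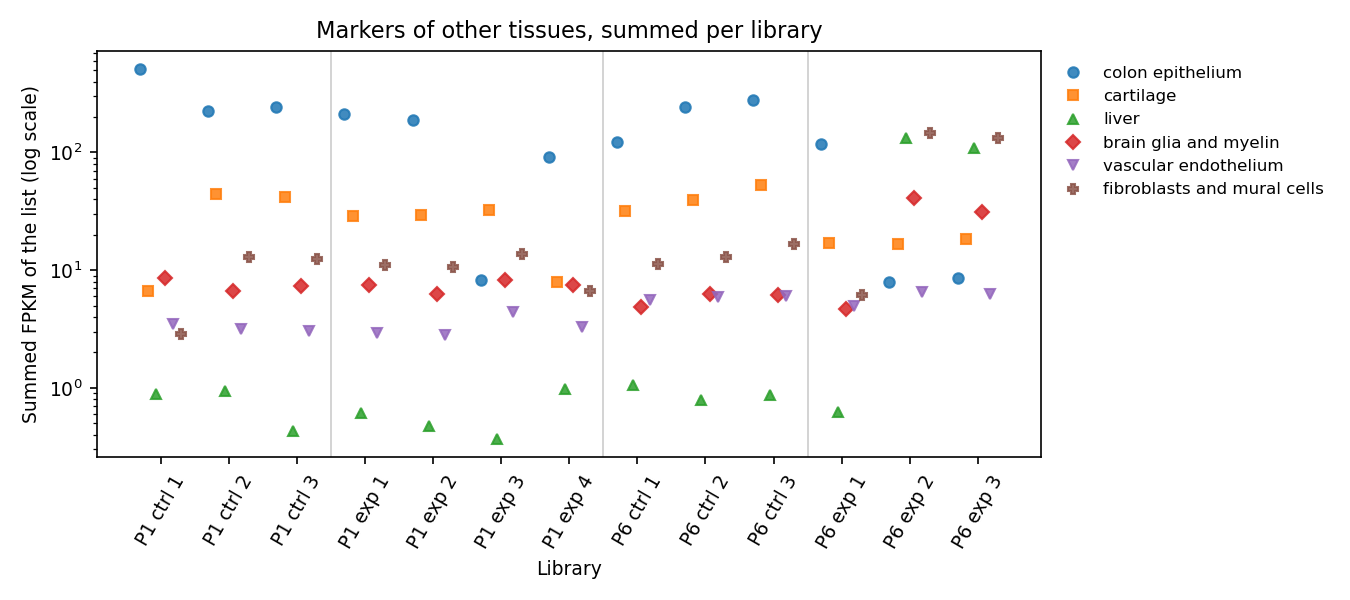
Summed FPKM (log axis) of the markers of 6 other tissues in each of the 13 libraries (ctrl, control, exp, experimental, P1 and P6, passages 1 and 6). Colon sums are low in passage 1 experimental library 3 (8.22 FPKM) and in passage 6 experimental libraries 2 and 3 (7.90 and 8.61 FPKM), and the last 2 carry the liver, glia and fibroblast transcripts.

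Levels within a group show which basement membrane transcripts the cells held. Col4a2 was the most abundant member in every group, at 141 ± 4.72 FPKM (SD, n = 3) in passage 1 controls, followed by Col4a1 and Lamc1. Lama4 and Hspg2 came next and their ranges overlapped in the controls of both passages, at 13.03 ± 0.323 and 12.7 ± 1.06 FPKM (SD, n = 3) at passage 1. Lamb2 and Lama5 followed, and their ranges did not overlap. Nid1 lay between 0.290 and 1.02 FPKM over the 13 libraries. Lamb1 lay between 0.0200 and 0.314 FPKM, and its 2 highest values, 0.314 and 0.307 FPKM, were in passage 6 experimental libraries 2 and 3. Lama1, the alpha chain of early embryonic basement membranes, was listed at 0 in 11 libraries and reached 0.00989 FPKM at most. Lama4 and Lama5 were thus the alpha chains with signal, Lamb2 the beta chain and Lamc1 the most abundant gamma chain. In the passage 1 experimental libraries Lamc1 and Col4a1 overlapped, as did each neighbouring pair among Hspg2, Lamb2, Lama4 and Lama5, while in the passage 6 experimental libraries no neighbours among these genes overlapped.

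**Figure D2:**
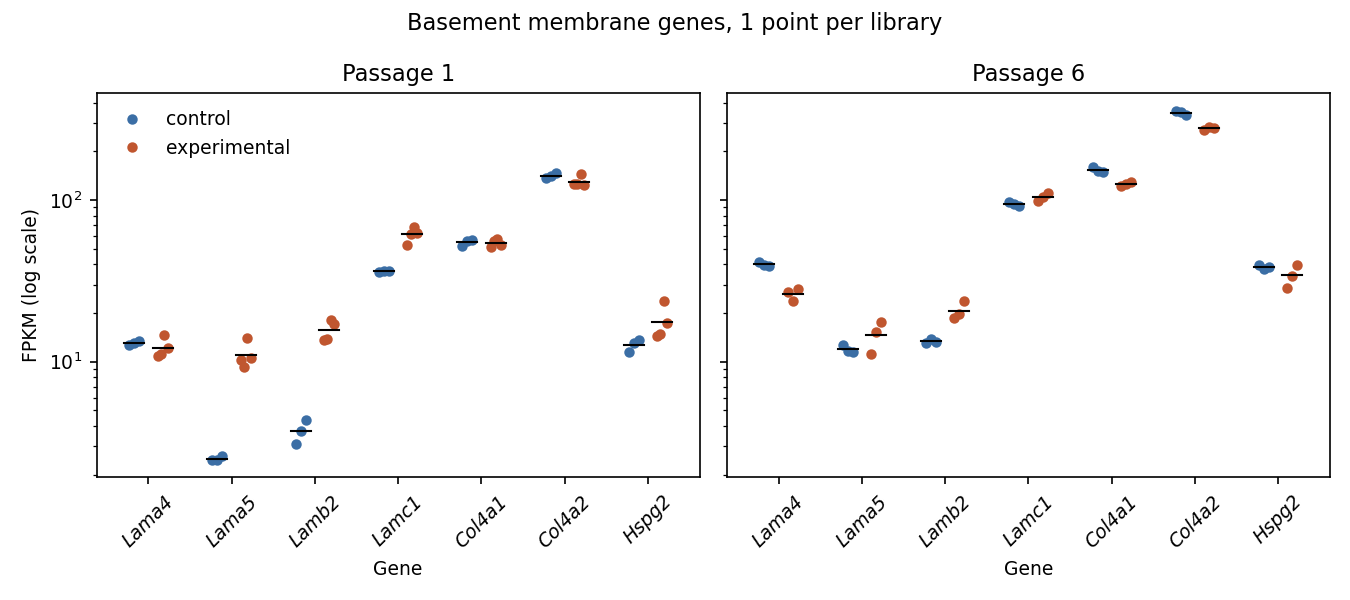
FPKM (log axis) of the 7 members that passed the filter, 1 point per library, black bars marking group means, controls in blue and experimental libraries in orange. At passage 1 Lama5, Lamb2 and Lamc1 lie above their controls in all 4 experimental libraries, and at passage 6 Lama4, Col4a1 and Col4a2 lie below theirs in all 3.

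Tests were made with limma on log2(FPKM + 1), with p adjusted by Benjamini-Hochberg over every gene of the passage with 3 or more libraries at 1 FPKM or above, and a gene is said to rise or fall only where that adjusted p passed 0.05. Fold changes are on the log2(FPKM + 1) scale, which understates changes of low genes. At each passage 7 of the 10 members passed the filter, and Lama1, Lamb1 and Nid1 did not. At passage 1, 3 of the 7 rose (Lama5, Lamb2 and Lamc1) and 4 did not pass the test, where 30.4% of all 12469 genes were called, 11.5% higher and 18.9% lower. At passage 6, 1 rose (Lamb2) and 3 fell (Lama4, Col4a1 and Col4a2), where 19.8% of 12458 genes were called, 8.98% higher and 10.8% lower. The median log2 change of the tested members was 0.41 at passage 1 and -0.18 at passage 6, against -0.05 and -0.04 over all genes tested. The balance of calls over all genes moved with scaling: 37.8% of passage 1 calls were higher as deposited, 48.8% with equal FPKM totals, 50.2% with quantile normalization and 55.5% with median-of-ratios scaling. At passage 6 these shares were 45.5%, 52.0%, 51.0% and 57.5%, and no scaling moved the median of all genes by as much as 0.1. The called members kept their direction under each of these scalings at both passages.

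**Figure D3:**
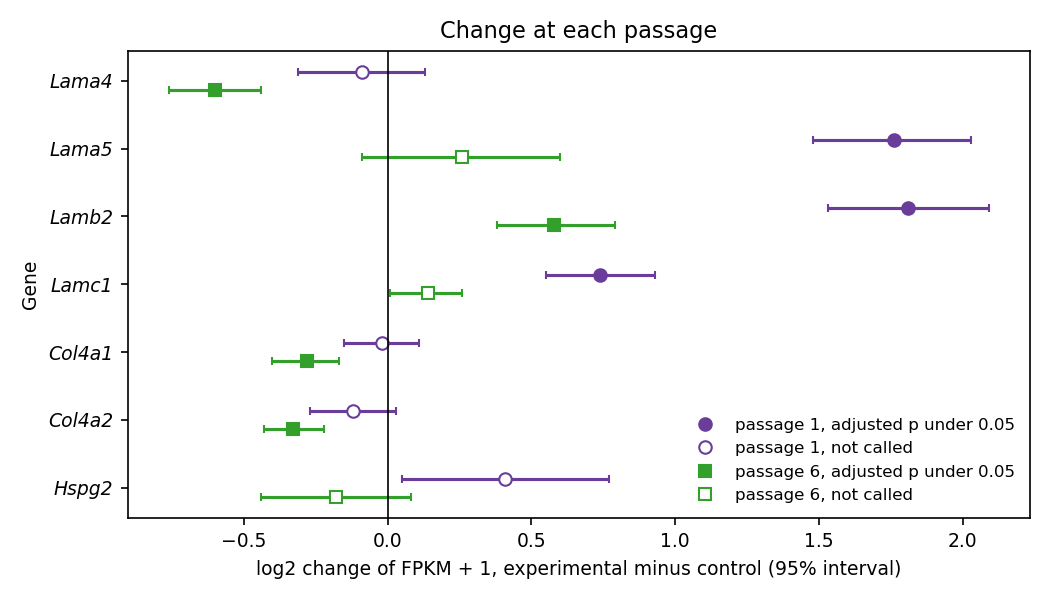
Log2 change of FPKM + 1, experimental minus control, with its 95% interval, for the 7 tested members at passage 1 (circles) and passage 6 (squares), filled where adjusted p passed 0.05. Lama5 and Lamb2 stand near 1.8 only among the passage 1 points, and the squares of Lama4, Col4a1 and Col4a2 lie left of 0.

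Among the alpha chains, Lama5 encodes laminin alpha 5, the widespread chain of mature epithelial and vascular basement membranes. At passage 1 it was at 2.47, 2.48 and 2.60 FPKM among controls, against 10.2, 9.21, 14.0 and 10.6 FPKM among experimental libraries. All 4 experimental libraries lay far above the controls, with library 3 highest. Lama5 rose 3.38-fold (log2 change 1.76, SE 0.12, limma adjusted p = 9.7e-05). Without control 1 and experimental library 4, which differed in cartilage transcripts, the log2 change was 1.76 (adjusted p = 0.00660). In bulk RNA, more cells expressing a gene and more RNA per cell cannot be told apart, here and in each result that follows.

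At passage 6 Lama5 stood at 12.6, 11.6 and 11.5 FPKM among controls, against 11.1, 15.2 and 17.7 FPKM among experimental libraries. Library 1 lay below every control and libraries 2 and 3 above, so the groups overlapped. The log2 change was 0.26 (95% interval -0.09 to 0.60, limma adjusted p = 0.245). It was -0.09 with experimental library 1 alone, and 0.43 (limma adjusted p = 0.00596) with that library left out. The value thus turned on libraries 2 and 3, which held the liver, glia and fibroblast transcripts. A fit with 1 experimental library takes its spread from the controls alone, so only log2 changes are given for such fits. For Lama5 the SD was 0.584 FPKM in passage 6 controls and 3.31 FPKM in experimental libraries.

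Lama4 (chromosome 10, 38965515 to 39110188, plus strand) encodes laminin alpha 4, a shortened chain of endothelium, perineurium and mesenchyme that lacks the arm used for polymerisation. At passage 1 it was at 12.7, 13 and 13.4 FPKM among controls, against 10.8, 11.2, 14.7 and 12.2 FPKM among experimental libraries, of which 3 lay below all controls and library 3 above them. Its log2 change of -0.09 (95% interval -0.31 to 0.13, adjusted p = 0.493) did not pass limma's test. Without experimental library 3 the change was -0.18 (adjusted p = 0.0432). At passage 6 Lama4 was at 41.6, 39.7 and 39.3 FPKM among controls, against 26.8, 23.7 and 28.3 FPKM among experimental libraries, every one of which was lower. It fell 1.51-fold (log2 change -0.60, SE 0.07, limma adjusted p = 0.00319). With experimental library 1 as the single experimental library the log2 change was -0.57.

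Of the beta chains, Lamb2 encodes laminin beta 2, the chain of synaptic, glomerular and perineurial basement membranes. Passage 1 controls had 3.11, 3.74 and 4.34 FPKM of Lamb2, and experimental libraries 13.6, 13.8, 18.0 and 17.0 FPKM. The groups were wide apart, and the lowest experimental library exceeded the highest control. Lamb2 rose 3.51-fold (log2 change 1.81, SE 0.12, limma adjusted p = 9.7e-05), and its log2 change was 1.67 (adjusted p = 0.00417) without control 1 and experimental library 4. At passage 6 controls had 12.99, 13.9 and 13.3 FPKM and experimental libraries 18.6, 19.6 and 23.6 FPKM, again without overlap. Lamb2 was the single member that rose at both passages, at passage 6 by 1.50-fold (log2 change 0.58, SE 0.09, limma adjusted p = 0.00682). With library 1 as the one experimental library the passage 6 change was 0.45.

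Lamb1 (chromosome 12, 31265234 to 31329644, plus strand), the beta 1 chain of embryonic and most adult laminins, was at 0.0200, 0.124 and 0.0624 FPKM among passage 1 controls, against 0.105, 0.0949, 0.0845 and 0.0389 FPKM among experimental libraries. The groups overlapped. At passage 6 it was at 0.0561, 0.0459 and 0.141 FPKM among controls, against 0.0269, 0.314 and 0.307 FPKM among experimental libraries, high in the 2 libraries with fibroblast transcripts and lowest in library 1.

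Lamc1 (chromosome 1, 153218922 to 153332786, minus strand) encodes gamma 1, the chain shared by nearly all laminins. In passage 1 controls it was at 35.7, 36.3 and 36.6 FPKM, and in experimental libraries at 52.6, 61.8, 68.4 and 62.8 FPKM. The controls were nearly level and all experimental libraries were higher. Lamc1 rose 1.67-fold (log2 change 0.74, SE 0.08, limma adjusted p = 7.3e-04), and by 0.72 on the log2 scale (adjusted p = 0.0234) without control 1 and experimental library 4. At passage 6 it was at 96.6, 94.0 and 92.3 FPKM among controls, against 98.6, 104 and 110 FPKM among experimental libraries. These ranges did not overlap, as was so for 41.7% of all genes tested at passage 6, and the log2 change of 0.14 (95% interval 0.01 to 0.26, limma adjusted p = 0.106) did not pass. Without experimental library 1 it was 0.18 (adjusted p = 0.0177), and with library 1 alone 0.06.

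Nid1 (chromosome 13, 13437551 to 13512269, plus strand) encodes nidogen 1, which binds the gamma 1 chain and collagen IV. It was at 0.290, 0.405 and 0.464 FPKM among passage 1 controls, against 0.436, 0.353, 0.669 and 0.315 FPKM among experimental libraries, with overlapping groups. At passage 6 it was at 1.02, 1.01 and 0.820 FPKM among controls, against 0.329, 0.774 and 0.821 FPKM among experimental libraries. Library 1 was far below the rest, and library 3 touched the lowest control. Nid1 was too low for the test at either passage, so no call was made.

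Col4a1 and Col4a2 encode the alpha 1 and alpha 2 chains that form the common collagen IV trimer. Col4a1 was at 52.0, 56.0 and 56.8 FPKM among passage 1 controls, against 51.3, 56.1, 57.4 and 52.3 FPKM among experimental libraries. The groups covered the same range, and the log2 change was -0.02 (95% interval -0.15 to 0.11, limma adjusted p = 0.835). Col4a2 was at 137, 141 and 146 FPKM among controls, against 126, 126, 145 and 123 FPKM among experimental libraries, of which 3 lay below all controls and library 3 among them. Its log2 change was -0.12 (95% interval -0.27 to 0.03, limma adjusted p = 0.195), and -0.17 (adjusted p = 0.0155) without experimental library 3. With Lama4 also passing, the count of called members was then 5 of 7, in place of 3.

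At passage 6 both collagen IV genes fell. Col4a2 was at 355, 349 and 337 FPKM among controls, against 271, 281 and 278 FPKM among experimental libraries, with a wide gap between the groups. It fell 1.25-fold (log2 change -0.33, SE 0.05, limma adjusted p = 0.00545). Col4a1 was at 160, 151 and 149 FPKM among controls, against 122, 126 and 129 FPKM among experimental libraries, again without overlap. It fell 1.22-fold (log2 change -0.28, SE 0.05, limma adjusted p = 0.0112), but did not pass without control 1 (adjusted p = 0.0586) or control 2 (adjusted p = 0.0531). At passage 1 the control low in cartilage collagen, control 1, had the lowest control value for Col4a1, Col4a2 and Lama4, at 52.0, 137 and 12.7 FPKM. It was also the lowest control for Lama5, Lamb1, Lamb2, Lamc1, Nid1 and Hspg2. Passage 1 experimental library 4, also low in Col2a1, was lowest of its group for Col4a2 at 123 FPKM. Its Col4a1 and Lama4, at 52.3 and 12.2 FPKM, lay above experimental library 1 of that passage, at 51.3 and 10.8 FPKM. The part of cartilage transcripts was not tested. With library 1 as the single experimental library of passage 6 the log2 changes were -0.36 for Col4a2 and -0.33 for Col4a1. An antisense gene, Gm15418, overlaps Col4a1 and was at 3.39 to 6.04 FPKM. Whether the counting used strand is not given in the sources used here.

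Hspg2 (chromosome 4, 137468769 to 137570630, plus strand) encodes perlecan, a heparan sulfate proteoglycan that binds laminin, nidogen and growth factors. It was at 11.5, 13.1 and 13.6 FPKM among passage 1 controls, against 14.4, 14.9, 23.6 and 17.3 FPKM among experimental libraries. All experimental libraries were higher and library 3 was well above the others. With Lama5, Lamb2 and Lamc1 it made 4 of 7 members whose groups did not overlap, where 42.6% of all genes tested did not. The log2 change of 0.41 (95% interval 0.05 to 0.77, limma adjusted p = 0.0803) did not pass. At passage 6 Hspg2 was at 39.6, 37.3 and 38.5 FPKM among controls, against 28.5, 34.1 and 39.9 FPKM among experimental libraries, so that library 3 exceeded every control. Its log2 change was -0.18 (95% interval -0.44 to 0.08, limma adjusted p = 0.285), and -0.42 with experimental library 1 as the single experimental library.

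One library was highest for most members in each group. Passage 1 experimental library 3 had the highest value of its group for 8 of the 10 members, as did passage 6 experimental library 3. Passage 1 control 3 was highest for 8 of the 9 members with a value above 0 in its group, and passage 6 control 1 for 7 of 9. Passage 1 experimental library 3 also had the lowest colon sum of its passage (8.22 FPKM), while control 3 had 242 FPKM. Their part in these levels was not tested.

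A contrast over the 13 libraries in limma asked whether the changes themselves differed between passages. The change was lower at passage 6 for 5 of the 7 members, where 14.7% of 13019 genes were called, 8.46% higher and 6.27% lower. The difference was -1.50 for Lama5 (SE 0.20, adjusted p = 0.00102), -1.23 for Lamb2 (SE 0.17, adjusted p = 0.00102) and -0.60 for Lamc1 (SE 0.10, adjusted p = 0.00366), all on the log2 scale. These 3 laminin genes had thus risen more at passage 1 than at passage 6, and all 3 passed in each of the 26 alternatives tried. Lama4 and Col4a1 differed by -0.51 (SE 0.13, adjusted p = 0.0211) and -0.27 (SE 0.08, adjusted p = 0.0360), since both were lower at passage 6 and near their controls at passage 1. Hspg2 differed by -0.59 (adjusted p = 0.0857) and Col4a2 by -0.21 (adjusted p = 0.115), which did not pass.

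The calls for Lama4 and Col4a1 did not hold in every fit that left out 1 library. The share of all genes called fell too, from 14.7% to between 8.98 and 9.49% without any 1 control. It was 10.9% without passage 6 experimental library 2. In the fits named next the log2 differences were -0.49 to -0.44 for Lama4 and -0.29 to -0.23 for Col4a1. Lama4 did not pass without passage 1 control 1 (adjusted p = 0.0524), passage 6 control 1 (0.0556) or passage 6 experimental library 2 (0.0505). Col4a1 did not pass without passage 1 control 1, 2 or 3 (adjusted p = 0.0966, 0.0632 and 0.0524), without passage 6 control 1, 2 or 3 (0.0950, 0.0647 and 0.0562), or without passage 6 experimental library 2 (0.0603). The count of called members was 3 wherever both ended.

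The controls of the 2 passages had different levels. Lama5 was at 2.51 ± 0.0706 FPKM (SD, n = 3) in passage 1 controls and 11.9 ± 0.584 FPKM (SD, n = 3) in passage 6 controls, and Lamb2 at 3.73 ± 0.616 and 13.4 ± 0.457 FPKM. The passage 1 experimental libraries, at 11.0 ± 2.08 FPKM for Lama5 and 15.6 ± 2.24 FPKM for Lamb2 (SD, n = 4), lay nearer to passage 6 than to passage 1 controls. Col4a2 went from 141 ± 4.72 to 347 ± 9.16 FPKM and Lama4 from 13.03 ± 0.323 to 40.2 ± 1.24 FPKM between the controls, and the passage 1 experimental libraries stayed near passage 1 controls for both. The passages were deposited as separate tables whose common scaling is not stated, so these levels are set side by side and were not tested.

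Ratios within a library do not depend on how libraries were scaled. Lama5 made up 16.0, 15.9 and 16.1% of the summed FPKM of the 5 alpha chain genes in passage 1 controls, and 48.2, 44.5, 48.3 and 46.0% in experimental libraries. At passage 6 the shares were 23.2, 22.6 and 22.7% in controls and 29.2, 38.8 and 38.3% in experimental libraries, lowest in library 1. Both passages thus had a higher share of Lama5 relative to Lama4 in every experimental library. At passage 1 this came with more Lama5. At passage 6 it came with less Lama4 in every experimental library. Libraries 2 and 3 of passage 6 also had more Lama5 than any control (15.2 and 17.7 FPKM, against 11.5 to 12.6 FPKM). Lamb2 was 86.9% ± 5.84 (SD, n = 3) of the beta chain sum in passage 1 controls and 98.3% ± 1.37 (SD, n = 4) in experimental libraries. At passage 6 it was 97.1% ± 0.853 and 98.7% ± 0.376 (SD, n = 3 each). The sum also held Lamb1 and Lamb3. At passage 1 Lamb3 averaged 0.477 FPKM in controls and 0.175 FPKM in experimental libraries, and Lamb1 0.0689 and 0.0808 FPKM. The passage 1 share of Lamb2 was lowest, 80.2%, in control 1, which had the highest colon sum (510 FPKM). It was highest, 99.5%, in experimental library 3, which had the lowest colon sum (8.22 FPKM), and the part of colon transcripts in it was not tested. Adding 1 FPKM to each beta chain moved the passage 1 difference from 11.4 to 23.0 percentage points.

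The chains of a trimer were not in equal supply. Summed gamma chains exceeded summed alpha chains, and alpha chains exceeded beta chains, in every library. In passage 1 controls the sums ran from 37.2 to 38.0 FPKM for gamma, 15.4 to 16.1 FPKM for alpha and 3.87 to 4.77 FPKM for beta chains. The beta to gamma ratio was 0.104, 0.111 and 0.126 in these controls and 0.256, 0.221, 0.254 and 0.260 in experimental libraries. At passage 6 it was 0.135, 0.149 and 0.147 in controls and 0.188, 0.189 and 0.214 in experimental libraries, higher in every one. The alpha to gamma ratio went the other way, from 0.417 ± 0.00638 (SD, n = 3) to 0.366 ± 0.0376 (SD, n = 4) at passage 1 and from 0.544 ± 0.00759 to 0.388 ± 0.0222 (SD, n = 3 each) at passage 6, without overlap at either. Transcript ratios say nothing of how much of each chain was made or secreted.

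The collagen IV genes kept closer together. Col4a2 over Col4a1 was 2.57 ± 0.0566 (SD, n = 3) in passage 1 controls and 2.40 ± 0.124 (SD, n = 4) in experimental libraries, and 2.26 ± 0.0491 and 2.20 ± 0.0438 (SD, n = 3 each) at passage 6, with overlapping groups at both. Hspg2 over Lamc1 overlapped at passage 1 and was 0.410, 0.397 and 0.417 in passage 6 controls against 0.289, 0.329 and 0.364 in experimental libraries, all lower. Nid1 over Lamc1 overlapped at passage 1 and was 0.0101 ± 0.00104 against 0.00609 ± 0.00239 (SD, n = 3 each) at passage 6, with all experimental libraries lower. With 3 or 4 libraries a group, the ratios are given as a description without a test.

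**Figure D4:**
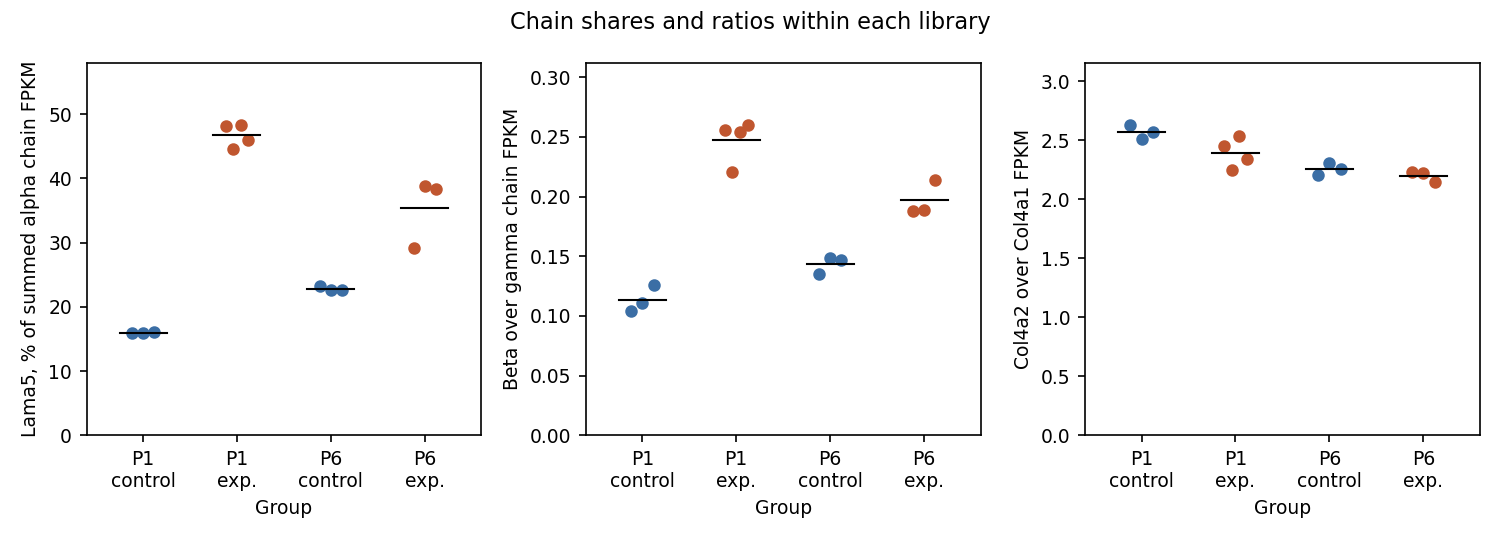
Lama5 as a percent of summed alpha chain FPKM, summed beta over summed gamma chain FPKM, and Col4a2 over Col4a1 FPKM, 1 point per library with group means as bars (P1 and P6, passages 1 and 6, exp., experimental). The first 2 measures are higher in every experimental library of both passages, and the collagen ratio overlaps between groups.

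The other genes of basement membranes were described from 5 lists, each read against the shares of all genes called (11.5% higher and 18.9% lower at passage 1, 8.98% and 10.8% at passage 6). Leaving out libraries moved these shares too. At passage 1 the share called in either direction, 30.4% with all libraries, was 17.0, 16.7 and 17.0% without control 1, 2 and 3. It was 32.8% without experimental library 2, 23.0% without library 4, and 8.02% without control 1 and experimental library 4. At passage 6 it was 19.8% with all libraries and 6.26, 5.47 and 6.12% without control 1, 2 and 3. It was 34.6, 13.9 and 12.9% without experimental library 1, 2 and 3.

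Of 21 other basement membrane components, 8 were tested at passage 1, of which 5 rose and 2 fell, with a median log2 change of 0.26. Fbln2, the elastic fibre and basement membrane protein fibulin 2, rose 1.74-fold from 53.0 ± 2.71 to 93.4 ± 11.0 FPKM (SD, n = 3 and 4; limma adjusted p = 7.4e-04). Tinagl1, a matricellular protein that binds laminin and integrins, rose 1.53-fold (adjusted p = 0.00327). Smoc1, a calcium-binding basement membrane protein, fell 1.32-fold (adjusted p = 0.00435) and Egfl7, a secreted vascular matrix protein, fell 1.45-fold (adjusted p = 0.00397). At passage 6, 1 of 8 rose, Tinagl1 at 1.27-fold (adjusted p = 0.0177), and 2 fell, Egfl7 at 1.27-fold lower (adjusted p = 0.00970) and Col18a1. The median log2 change was -0.17. Fbln2 stood at a log2 change of 0.23 (adjusted p = 0.0950), and 0.33 (adjusted p = 0.00152) without experimental library 1.

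This list's counts moved as libraries were left out. At passage 1, 2 rose and 2 fell without control 1, and 3 rose and the rest did not pass without control 1 and experimental library 4, where Smoc1 and Egfl7 had adjusted p = 0.0622 and 0.0565. At passage 6, 1 gene was called without control 2 and 5 without experimental library 1. With experimental library 1 as the single experimental library, log2 changes were 0.36 for Tinagl1, 0.04 for Fbln2, -0.26 for Smoc1 and -0.28 for Egfl7. Tinagl1 at passage 6 did not pass without control 1, control 2 or experimental library 3 (adjusted p = 0.0717, 0.0711 and 0.0526), nor Egfl7 without control 2 (0.0546).

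Receptors form the cell's side of the contact. Of 15 receptor genes for laminin or collagen IV, 13 were tested at passage 1, of which 7 rose and 1 fell (median log2 change 0.19). At passage 6, 14 were tested, of which 5 rose and 3 fell (median 0.12). The filter can be met by 1 group alone. Itga2, among the 7, met it only through its experimental libraries (1.49 to 2.15 FPKM, against 0.588 to 0.721 FPKM in controls). Itga3, the alpha subunit of integrin α3β1, a receptor of laminins with the alpha 5 chain, rose 2.42-fold at passage 1 and 1.83-fold at passage 6 (limma adjusted p = 0.00162 and 0.00136). It went from 2.35 ± 0.574 to 7.16 ± 1.60 FPKM (SD, n = 3 and 4) at passage 1 and from 6.81 ± 0.498 to 13.3 ± 0.822 FPKM (SD, n = 3 each) at passage 6. Dag1, which encodes dystroglycan, rose 1.48-fold and 1.31-fold (adjusted p = 8.9e-04 and 0.0133). Sdc3, a neuronal heparan sulfate syndecan, rose 1.64-fold and 2.04-fold (adjusted p = 0.00106 and 7.4e-04), reaching 33.4 ± 2.59 FPKM against 15.8 ± 0.316 FPKM (SD, n = 3 each) at passage 6. Ddr1, a collagen receptor tyrosine kinase, rose 1.37-fold at passage 1 (adjusted p = 7.8e-04) and had a log2 change of 0.12 at passage 6 (adjusted p = 0.145), or 0.15 (adjusted p = 0.0303) without experimental library 1.

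Dag1 did not pass at passage 6 without control 1, 2 or 3 (limma adjusted p = 0.0542, 0.0596 and 0.0571). The number of receptor genes called was 5, in place of 8, at passage 1 without control 1 and experimental library 4, and at passage 6 without control 2 or without control 3. With library 1 as the single experimental library of passage 6, log2 changes were 0.79 for Itga3, 0.31 for Dag1, 0.93 for Sdc3 and 0.05 for Ddr1.

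Dystroglycan binds laminin through a long sugar chain made by a dedicated set of enzymes. Of 12 such genes, 11 were tested at each passage. At passage 1, 1 rose and 3 fell (median log2 change -0.10), and at passage 6, 6 rose and the other 5 did not pass (median 0.22). Pomk, the kinase of the core sugar, fell 1.41-fold at passage 1 (limma adjusted p = 0.00376) and had a log2 change of 0.18 at passage 6 (adjusted p = 0.125), or 0.23 (adjusted p = 0.0299) without experimental library 1. Pomgnt2, which builds that core, fell 1.22-fold at passage 1 and rose 1.28-fold at passage 6 (adjusted p = 0.0114 and 0.0203). Rxylt1, a xylosyltransferase of the chain, rose 1.39-fold at passage 6 (adjusted p = 0.0138).

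These glycosylation counts moved as libraries were left out, and so did the share of all genes called. At passage 6 the count of 6 was 1 without any one of the 3 controls. In these fits 5.47 to 6.26% of all genes were called, against 19.8% with all libraries. The count was 3 without experimental library 2 (13.9% of all genes) and 2 without experimental library 3 (12.9%). Pomgnt2 at passage 6 did not pass without control 1, 2 or 3 or experimental library 3 (limma adjusted p = 0.0839, 0.0802, 0.0511 and 0.0576), nor Rxylt1 without control 1, 2 or 3 (0.0586, 0.0531 and 0.0571). At passage 1 the count of 4 was 2 without control 1 and 1 without control 3. Pomgnt2 then had limma adjusted p = 0.0599 without control 3. Without control 1 and experimental library 4, limma called 0 of 11, where 8.02% of all genes were called against 30.4% with all libraries. Of the 11, 5 had an unadjusted p under 0.05 (1 higher and 4 lower), the same counts as with all libraries.

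Collagen IV chains need hydroxylation of proline and lysine to fold, and crosslinks to hold the network. Of 14 genes for these steps, 13 were tested at passage 1, of which 5 rose and the other 8 did not pass (median log2 change 0.14). Loxl2, which crosslinks the 7S domain of collagen IV, rose 1.94-fold from 26.1 ± 1.42 to 51.8 ± 6.37 FPKM (SD, n = 3 and 4; limma adjusted p = 4.3e-04), and at passage 6 had a log2 change of 0.11 (adjusted p = 0.242). Plod2, a lysyl hydroxylase, rose 1.68-fold (adjusted p = 0.00535) and P4ha1, a prolyl 4-hydroxylase subunit, 1.67-fold (adjusted p = 0.0194) at passage 1. At passage 6, 2 of 14 rose and 3 fell (median 0.10). The 3 that fell were P4ha1 (1.33-fold lower, adjusted p = 0.00218), its paralog P4ha2 (1.36-fold lower, adjusted p = 0.00249) and Plod2 (1.24-fold lower, adjusted p = 0.0110), at the passage at which Col4a1 and Col4a2 fell. P4ha1 went from 28.0 ± 2.27 to 48.6 ± 12.6 FPKM (SD, n = 3 and 4) at passage 1 and from 74.5 ± 0.859 to 55.9 ± 0.573 FPKM (SD, n = 3 each) at passage 6.

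P4ha1 at passage 1 did not pass without control 1, 2 or 3 or experimental library 4 (limma adjusted p = 0.0729, 0.0521, 0.0570 and 0.0504). P4ha2 had a log2 change of 0.25 at passage 1 (adjusted p = 0.227), or 0.38 (adjusted p = 0.0189) without experimental library 2. Plod2 did not pass at passage 1 without control 1 and experimental library 4 (0.0701), nor at passage 6 without control 1, 2 or 3 (0.0560, 0.0521 and 0.0544). The passage 1 count of 5 was 3 without control 1, control 3 or experimental library 4, 8 without experimental library 2, and 1 without control 1 and experimental library 4. The passage 6 count of 5 was 3 without control 1 or 2, 2 without control 3, and 9 without experimental library 1. With library 1 as the single experimental library, log2 changes were -0.39 for P4ha1, -0.49 for P4ha2, -0.30 for Plod2 and 0.02 for Loxl2. In a single fit over both passages 2 rose and 1 fell at passage 6, and P4ha1 and Plod2 did not pass (adjusted p = 0.0852 and 0.0754).

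Of 15 genes for proteases that cut basement membranes and their inhibitors, 9 were tested at each passage. At passage 1, 4 rose and 1 fell (median log2 change 0.29), and at passage 6, 3 rose and 2 fell (median 0.11). Mmp9, among the 4, met the filter only through its experimental libraries (1.10 to 1.98 FPKM, against 0.723 to 0.832 FPKM in controls). Bmp1, a procollagen and laminin-processing metalloprotease, rose 1.99-fold at passage 1 and 1.36-fold at passage 6 (limma adjusted p = 5.4e-05 and 0.00215), from 5.15 ± 0.222 to 11.3 ± 0.683 FPKM (SD, n = 3 and 4) and from 10.9 ± 0.128 to 15.2 ± 0.131 FPKM (SD, n = 3 each). Timp2, an inhibitor of metalloproteases, rose 1.42-fold and 1.53-fold (adjusted p = 0.00303 and 0.00141). Adamts4, a proteoglycan-cutting protease, rose 1.56-fold at passage 1 (adjusted p = 7.0e-04) and had a log2 change of 0.11 at passage 6 (adjusted p = 0.274). Timp3, the matrix-bound inhibitor, fell 1.86-fold at passage 6 (adjusted p = 0.00551), from 5.13 ± 1.04 to 2.28 ± 0.263 FPKM (SD, n = 3 each). Its passage 1 log2 change was -0.11 (SE 0.37, adjusted p = 0.849), with 1.55 to 5.32 FPKM among controls and 1.61 to 4.37 FPKM among experimental libraries. Without control 1 and experimental library 4, which were low in Col2a1, it was -0.30 (SE 0.0800, limma adjusted p = 0.0731). Every passage 6 experimental library was low in Col2a1 too, and the part of cartilage transcripts in Timp3 was not tested. The count of 5 was 3 at passage 1 without control 2, or without control 1 and experimental library 4, and 3 at passage 6 without control 2. With library 1 as the single experimental library of passage 6, log2 changes were 0.44 for Bmp1, 0.64 for Timp2 and 0.14 for Adamts4. Timp3 was again lower in that fit. In a single fit over both passages 2 rose and 1 fell at passage 6, where Timp3 did not pass (adjusted p = 0.0660).

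**Figure D5:**
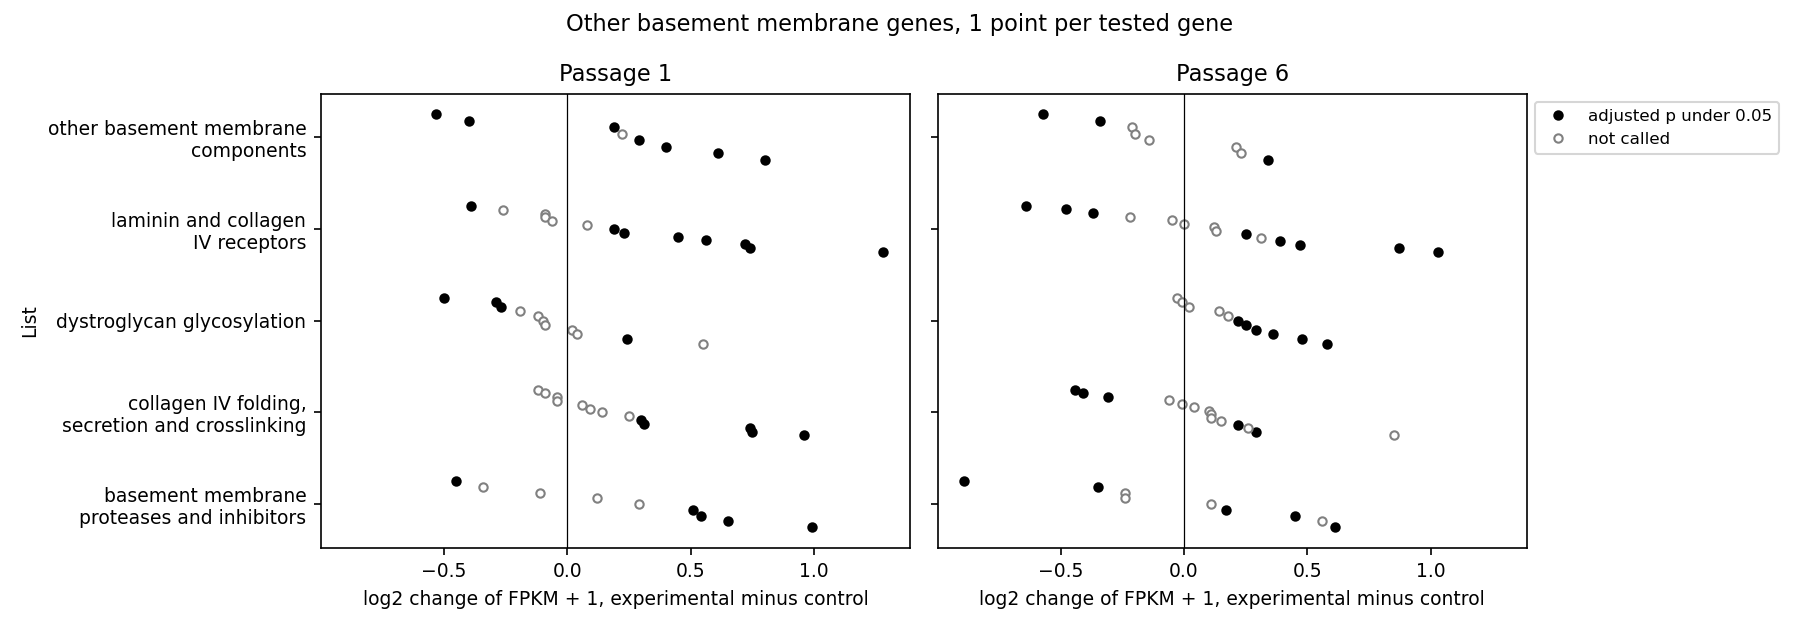
Log2 change of FPKM + 1, experimental minus control, of each tested gene of the 5 lists at passages 1 and 6, filled points marking adjusted p under 0.05. Filled points lie mostly right of 0 in the receptor list at passage 1 (7 higher, 1 lower) and all right of 0 among the dystroglycan glycosylation genes at passage 6 (6 higher).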

How the data were processed

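Expression of Neuro2a cells was measured by poly(A) RNA-seq in 13 libraries. The authors deposited FPKM in 1 table per passage, and all 13 value columns were used. The submitters' processing notes name mm10, HISAT2, StringTie, cutadapt, edgeR and DESeq2 without versions, so how FPKM were scaled between libraries is not given in the sources used here. Per the labels, libraries were stranded and RNA integrity numbers exceeded 7.0. Totals were 315034 to 354288 FPKM per library. Steps of single reads could not be recovered from the low values, so depth is unknown and precision rests on the spread between libraries.

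The tables share 34857 Ensembl identifiers, of which 34730 matched a symbol in GENCODE's GRCm38 annotation. 1 gene with an empty cell was left out.

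In R 4.3.3, limma 3.58.1 was fitted to log2(FPKM + 1) with equal weights, an intensity trend and two-sided tests, per passage, and over all 13 libraries for the difference between passages. A gene was tested where 3 or more libraries of a passage had 1 FPKM or more, and Benjamini-Hochberg adjustment ran over all of them with a threshold of 0.05. The fit was tested on simulated data. Tables and figures used matplotlib 3.10.9, pandas 2.3.3, numpy 2.4.6 and Python 3.11.15. The text names all 10 members and, from each list, up to 4 called genes with the smallest adjusted p, of which some are not reported here; Col18a1 and Gm15418 were named after their values were seen. Members and lists were chosen with earlier results of these data known, and counts of list genes are descriptions. Alternatives were other pseudocounts, filters, scalings and limma settings, 1 fit over both passages, a block for the replicate number, and leaving out libraries.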

Additional observations from a re-analysis of the deposited data

Results flagged for a closer look

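The change between experimental and control libraries differed between the passages for 5 members by the test of that difference in limma. On the log2 scale, passage 6 minus passage 1, it was -1.50 for Lama5, -1.23 for Lamb2, -0.60 for Lamc1, -0.51 for Lama4 and -0.27 for Col4a1.

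Among the 4 passage 1 experimental libraries, 1 library stood far from the other 3 for 2 members. Col4a2 was at 145 FPKM in library 3, against 123 to 126 FPKM in the others. Lama1 was at 0.00518 FPKM in library 1 and listed at 0 in the other 3. Of 17 sets of values examined for such a gap, these 2 had one, where chance gives about 1 in 20 sets if values are normally spread. With 3 libraries at 0, any value above 0 would be flagged, so the Lama1 gap says nothing about that library.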

How the results depend on the processing

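Lama5, Lamb2 and Lamc1 passed limma's test at passage 1 in all 20 alternatives, with log2 changes of 1.08 to 2.07, 1.24 to 2.04 and 0.68 to 0.81. At passage 6 Lama4, Lamb2 and Col4a2 passed in all 19, with -0.65 to -0.53, 0.45 to 0.65 and -0.36 to -0.26. The number of members called at passage 1 was 3, and 5 with array weights, and ran from 3 to 5 with 1 library left out. The passage 6 count of 4 also moved. Col4a1 did not pass there without control 1 or 2 (limma adjusted p = 0.0586 and 0.0531). Lama5 and Lamc1 passed as well with array weights (0.0349 and 0.0305) and without experimental library 1 (0.00596 and 0.0177). The number whose change differed between passages was 5. It was 3 without a filter, with the replicate block, and without passage 1 control 1 and experimental library 4, and ran from 3 to 5 with 1 library left out. That difference stopped passing in 13 of 26 alternatives for Col4a1 and in 7 of 26 for Lama4. Col4a1 at passage 1 turned from -0.02 to 0.05 under median-of-ratios scaling and 0.03 where FPKM totals were made equal, and ran from -0.06 to 0.01 with 1 library left out. Lama5 at passage 6 turned to -0.09 with experimental library 1 alone, where the lone sample is assumed to vary like the controls. A fit of this kind is among the alternatives counted here for passage 6 and for the difference between passages. Adding 1 FPKM to each chain moved the passage 1 differences to 25.0 points for the Lama5 share, 23.0 points for the Lamb2 share (4.75 at passage 6), -0.0837 for alpha over gamma, 0.103 for beta over gamma and -0.0140 for Nid1 over Lamc1. The replicate block left 3 members called at passage 1 and 4 at passage 6. The numbers share no stated origin, and deviations of same-numbered libraries correlated at 0.166, -0.192 and 0.239 at passage 1 and -0.066, -0.06 and 0.033 at passage 6. The block also left 2 of 6 dystroglycan glycosylation genes called at passage 6. Over all values and alternatives 1528 kept their direction and side of the threshold, 65 no longer passed, 16 newly passed, 5 turned and 57 counts or shares moved. Causes of these shifts were not tested. Depth sets no usable level for Lama1, Lamb1 and Nid1.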
